A study of Mus musculus with 16 samples.

Results

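The genes described here are 32 members of the NRF2 antioxidant and NADPH programme, listed by name and read in mouse liver. All 32 were found among the 24082 Ensembl genes of the table, and 31 of them had enough reads to be tested beside 12522 genes in all. Liver RNA came from 16 female C57Bl6/J mice aged 9 to 11 weeks, 4 in each of 4 groups, kept on a liquid diet for the 25-day chronic feeding study. The Pair Vehicle and Pair IMC groups were pair-fed a diet in which maltose dextrin took the place of ethanol, and the EtOH Vehicle and EtOH IMC groups were fed the chronic ethanol diet, which reached 6% ethanol by volume. The IMC groups received iodomethylcholine, an inhibitor of the bacterial choline TMA lyase of the gut, at 0.06% of the diet by weight, and the Vehicle groups did not. The study describes lower food intake and body weight in the mice given both IMC and ethanol, and also marks a body weight difference between its pair-fed groups. IMC and body weight therefore cannot be told apart in either diet, nor can IMC, lower intake and a lower ethanol dose in EtOH IMC mice. Whole liver was sequenced, so fewer cells of a type and less RNA per cell cannot be told apart either. Each library held 9632659 to 12601199 reads on genes, and values are normalized counts on 1 scale over all 16 libraries, on which 1 read was worth about 1 unit. Libraries numbered 1 to 8 hold the Pair IMC and EtOH Vehicle mice and those numbered 9 to 16 the Pair Vehicle and EtOH IMC mice. Each comparison of 2 groups below therefore sets one of these blocks of numbers against the other, and the effect and the order of the libraries cannot be told apart in it. Effects averaged over diets or over treatments draw on both blocks equally. All pair-fed libraries have even numbers and all ethanol-fed libraries odd numbers, so diet and this alternation cannot be told apart in any ethanol effect.

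NRF2, encoded by Nfe2l2, is a transcription factor that KEAP1 holds in the cytoplasm and marks for degradation. Oxidants and electrophiles modify KEAP1, NRF2 then enters the nucleus, pairs with a small MAF protein and binds antioxidant response elements beside its target genes. The targets build and recycle glutathione and thioredoxin, reduce quinones and carbonyls, break down haem, store iron and, through the pentose phosphate pathway, supply the NADPH that these reductases consume. In liver the programme is known for its part in the defence against reactive drug metabolites and the products of ethanol oxidation.

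The antioxidant response element core, searched on both strands as TGACNNNGC or TGAGNNNGC, was looked for in RefSeq promoters of the GRCm38.p6 assembly that run from 250 bases before a gene's start to 50 bases after it. Its letters can overlap the AP-1 motif, TGACTCA or TGAGTCA. Of the 32 members 27 had a promoter in the table, and 14 of these 27 (51.9%) held either form, against 30.8% of 27025 genes. The form TGACNNNGC was in 10 of 27 members (37%) and 14% of all genes, and the form TGAGNNNGC was in 6 of 27 (22.2%) and 19.8% of all genes. A match describes letters, not binding. Cbr1, Cbr3, Nqo1, Ephx1, Aox1, Entpd5, Ftl1, Fth1, Sqstm1 and Gss rose with IMC in at least 1 comparison and held no match. Blvrb, G6pdx, Gclm, Txnrd1, Srxn1, Pir and Ugdh rose and held a match. Mafg, which fell with IMC, held a match, as did Nfe2l2, Osgin1, Pgd, Taldo1 and Prdx1, which were not called for it. Slc7a11, which was too low to test, also held a match. Keap1, Tkt and Txn1 held no match and were not called for IMC. A link between match and response was not tested. Below are 4 members that had more than 1 match, with each match in capitals. The first 3 (Srxn1, Pir and Ugdh) rose in at least 1 IMC comparison and Prdx1 did not pass. They are Srxn1 at chr2:152105274-152105573 on the plus strand, Pir at chrX:164269181-164269480 on the plus strand, Ugdh at chr5:65435793-65436092 on the minus strand and Prdx1 at chr4:116685349-116685648 on the plus strand.
Srxn1: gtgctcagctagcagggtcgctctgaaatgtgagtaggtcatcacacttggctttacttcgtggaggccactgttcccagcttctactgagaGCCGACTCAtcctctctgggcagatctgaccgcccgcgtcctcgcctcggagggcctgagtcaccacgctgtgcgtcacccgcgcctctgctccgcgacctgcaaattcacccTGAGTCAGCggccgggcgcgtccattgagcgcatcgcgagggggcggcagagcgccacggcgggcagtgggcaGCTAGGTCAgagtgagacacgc
Pir: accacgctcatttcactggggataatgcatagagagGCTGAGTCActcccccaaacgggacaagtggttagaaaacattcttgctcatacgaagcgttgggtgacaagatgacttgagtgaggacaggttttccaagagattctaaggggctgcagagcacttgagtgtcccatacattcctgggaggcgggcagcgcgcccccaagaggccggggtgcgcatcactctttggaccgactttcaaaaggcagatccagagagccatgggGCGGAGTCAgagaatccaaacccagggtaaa
Ugdh: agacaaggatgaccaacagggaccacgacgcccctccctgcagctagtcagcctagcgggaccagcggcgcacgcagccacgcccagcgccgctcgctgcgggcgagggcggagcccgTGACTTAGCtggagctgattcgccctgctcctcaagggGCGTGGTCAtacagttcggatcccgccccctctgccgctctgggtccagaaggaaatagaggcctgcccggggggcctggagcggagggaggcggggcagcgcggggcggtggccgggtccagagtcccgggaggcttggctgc
Prdx1: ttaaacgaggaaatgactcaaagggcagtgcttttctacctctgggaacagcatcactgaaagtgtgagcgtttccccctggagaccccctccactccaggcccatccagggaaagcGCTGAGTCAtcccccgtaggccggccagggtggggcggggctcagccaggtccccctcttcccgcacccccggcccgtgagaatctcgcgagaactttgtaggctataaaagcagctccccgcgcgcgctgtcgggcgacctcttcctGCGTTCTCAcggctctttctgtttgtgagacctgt

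IMC raised members of the glutathione, thioredoxin, carbonyl, xenobiotic and iron branches, and more of them passed in the ethanol diet than in the pair-fed diet. In pair-fed mice 11 of the 31 tested members rose and 1, Mafg, fell (limma on log2 normalized counts, Benjamini-Hochberg adjusted over all genes tested), beside 4.32% of all genes higher and 5.17% lower. In ethanol-fed mice 19 members rose and Mafg fell, beside 10.4% of all genes higher and 11.1% lower. Averaged over both diets 20 members rose and 1 fell, beside 14.1% of all genes higher and 14% lower. The median log2 fold change of the members was 0.31 in pair-fed mice, 0.66 in ethanol-fed mice and 0.50 on average, while the median of all genes tested lay within 0.01 of 0. The 4 IMC mice lay above the 4 Vehicle mice without overlap for 10 members in the pair-fed diet (7.39% of all genes) and for 19 in the ethanol diet (12.4% of all genes). The 10 members that rose in both diets were Gclc, Gclm, Gsr, Cbr1, Pir, Ephx1, Slc48a1, Ftl1, Ugdh and Aox1. They made up 10 of the 11 called in pair-fed mice and 10 of the 19 called in ethanol-fed mice. The share of all genes called in both diets was not counted.

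**Figure D1:**
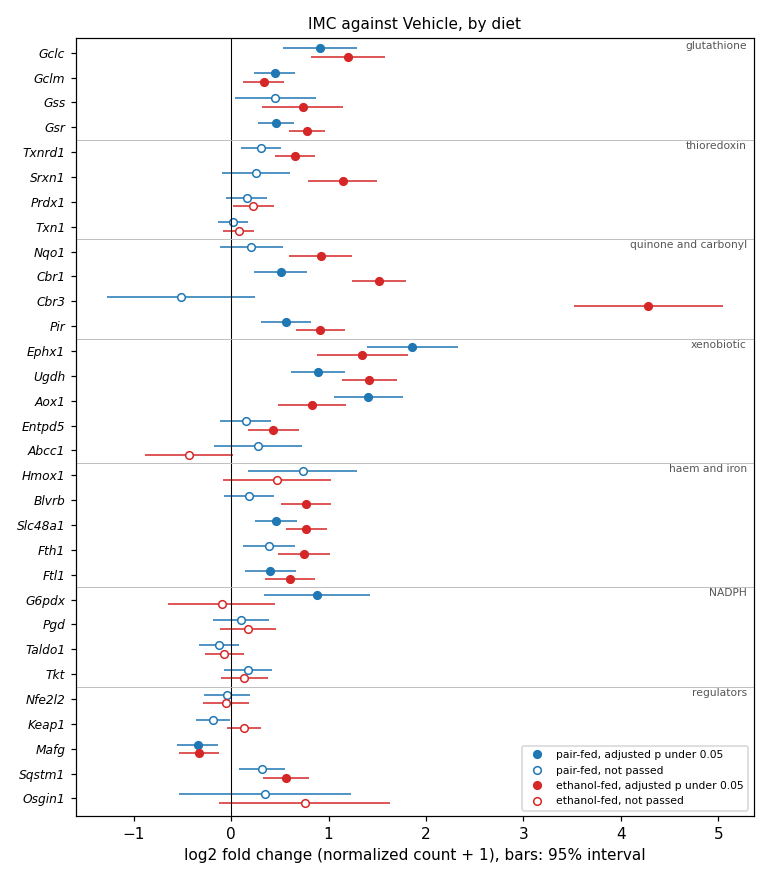
The log2 fold change of normalized count + 1 is plotted for IMC against Vehicle in each of the 31 tested members, grouped by role, in pair-fed (blue) and ethanol-fed (red) mice. Bars are 95% intervals and filled points have an adjusted p under 0.05. Cbr3 lies at 4.28 in ethanol-fed mice and at -0.51 in pair-fed mice, and Mafg is the filled point below 0 in both diets.

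The carbonyl reductases were the members whose IMC effect differed between diets at the threshold. Cbr3 and Cbr1 encode NADPH-dependent enzymes that reduce carbonyl compounds and quinones, and the genes are neighbours on the plus strand, Cbr1 at chr16:93605853-93610505 and Cbr3 at chr16:93683215-93690990 (GENCODE vM21 on GRCm38). Cbr3 had normalized counts of 11.1, 13.6, 9.33 and 6.07 in Pair Vehicle mice, 5.05, 6.77, 9.96 and 5.01 in Pair IMC mice, and 4.46, 13.8, 14.3 and 13 in EtOH Vehicle mice. In EtOH IMC mice it had 223, 127, 341 and 253. The lowest EtOH IMC mouse stood far above each of the 12 others, of which 5 reached the value of 10 that the filter asks for. IMC raised Cbr3 by 19.5-fold in ethanol-fed mice (95% interval 11.5 to 33.0, log2 fold change 4.28 ± 0.36 (SE), limma adjusted p = 1.79e-06), and in pair-fed mice the log2 fold change was -0.51 with an adjusted p of 0.404. These counts are few in 3 of the 4 groups, so the size of the fold rests on a low denominator.

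Cbr1 was already a well expressed gene without treatment. Its normalized counts were 753, 921, 1015 and 1117 in Pair Vehicle mice, 1209.9, 1671, 1499 and 1061 in Pair IMC mice, 1092, 996, 1031 and 1096 in EtOH Vehicle mice, and 2836, 2786, 3329 and 3153 in EtOH IMC mice. The EtOH IMC mice stood apart from all others, and the pair-fed groups overlapped. IMC raised it 2.86-fold (2.37 to 3.46) in ethanol-fed mice (limma adjusted p = 1.88e-06) and 1.42-fold (1.18 to 1.72) in pair-fed mice (adjusted p = 0.022). The pair-fed call was lost without library 4, 6 or 10, with adjusted p of 0.0824, 0.0744 and 0.0653.

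Nqo1 encodes a quinone reductase that is the usual reporter of NRF2 activity, and it responded to ethanol as well as to IMC. It had normalized counts of 137, 135, 159 and 134 in Pair Vehicle mice, 159, 169, 171 and 153 in Pair IMC mice, 183, 310.1, 268 and 355 in EtOH Vehicle mice, and 504, 437, 603 and 523 in EtOH IMC mice. Both ethanol-fed groups lay above both pair-fed groups, and the EtOH IMC mice above the EtOH Vehicle mice. The IMC effect was 1.89-fold (1.51 to 2.37) in ethanol-fed mice, with a limma adjusted p of 0.000575, and 1.16-fold (0.923 to 1.45) in pair-fed mice, with an adjusted p of 0.428. Srxn1 encodes sulfiredoxin, which repairs over-oxidized peroxiredoxins, and it followed the same order of groups. Its counts were 409.6, 439, 399 and 388 in Pair Vehicle mice, 469.6, 577, 487 and 432 in Pair IMC mice, 672, 728, 878 and 1049 in EtOH Vehicle mice, and 1879, 1290.4, 2599 and 1707 in EtOH IMC mice. Only the pair-fed groups overlapped. IMC raised Srxn1 by 2.21-fold (1.73 to 2.82) in ethanol-fed mice (limma adjusted p = 0.000192), and in pair-fed mice the fold was 1.20 (0.937 to 1.52) with an adjusted p of 0.361.

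**Figure D2:**
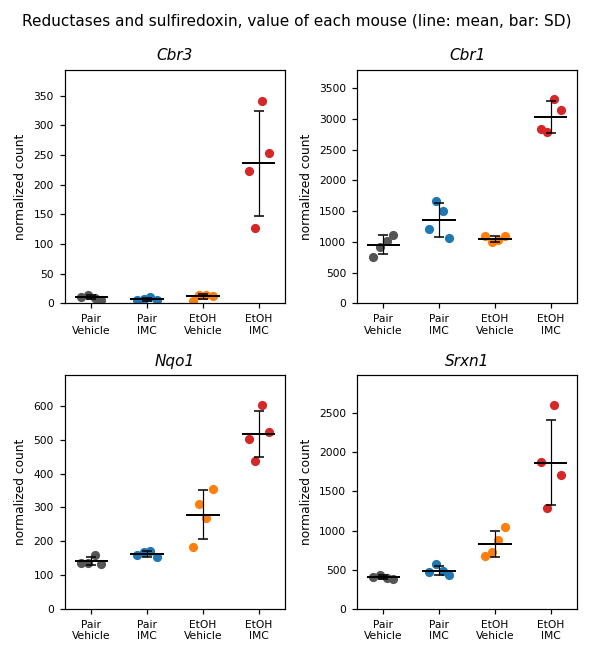
Normalized counts of Cbr3, Cbr1, Nqo1 and Srxn1 are plotted for each of the 16 mice (points), with the mean (line) and SD (bar) of each group of 4. For each of the 4 genes the EtOH IMC mice lie above all other mice.

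Pir, which encodes pirin, an iron-binding nuclear protein, rose by 1.48-fold in pair-fed mice and by 1.89-fold in ethanol-fed mice (limma adjusted p = 0.00824 and 8.44e-05). Its values ran from 172 to 216 in Pair Vehicle mice, 240.0 to 306 in Pair IMC mice, 168 to 250.5 in EtOH Vehicle mice and 348 to 399 in EtOH IMC mice. The Vehicle and IMC mice did not overlap in either diet.

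Of the glutathione genes, those for synthesis and recycling rose while the gene of the cystine importer was too low to test. Gclc and Gclm encode the catalytic and modifier subunits of glutamate-cysteine ligase, the rate-limiting step of glutathione synthesis. Gclc had normalized counts of 3295, 1999.7, 2819.7 and 2829 in Pair Vehicle mice, 5347, 6227, 5269 and 3765 in Pair IMC mice, 3373, 3265, 3444 and 2531 in EtOH Vehicle mice, and 6460.0, 6168, 10176 and 6619 in EtOH IMC mice. Every IMC mouse exceeded every Vehicle mouse. The IMC effect was 1.88-fold (1.45 to 2.45, limma adjusted p = 0.00498) in pair-fed mice and 2.30-fold (1.77 to 2.99, adjusted p = 0.000245) in ethanol-fed mice. Gclm moved less than its partner, by 1.36-fold (1.18 to 1.58) in pair-fed mice (limma adjusted p = 0.011) and by 1.26-fold (1.09 to 1.46) in ethanol-fed mice (adjusted p = 0.025). The second of these calls was lost without library 3, 5, 7, 11 or 13, with adjusted p of 0.0507 to 0.0718.

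Gsr encodes glutathione reductase, which uses NADPH to return oxidized glutathione to its reduced form. It had normalized counts of 727, 764, 671 and 583 in Pair Vehicle mice, 957, 931, 979.9 and 899.7 in Pair IMC mice, 736, 770.0, 708 and 816 in EtOH Vehicle mice, and 1247, 1250.0, 1493 and 1224 in EtOH IMC mice. The IMC mice did not overlap with the Vehicle mice of either diet. IMC raised it by 1.38-fold (1.21 to 1.57, limma adjusted p = 0.00427) in pair-fed mice and by 1.72-fold (1.51 to 1.95, adjusted p = 2.26e-05) in ethanol-fed mice. Gss, for glutathione synthetase, rose by 1.66-fold (1.25 to 2.21) in ethanol-fed mice with a limma adjusted p of 0.0135. In pair-fed mice its fold was 1.37 (1.03 to 1.82, adjusted p = 0.153), where library 16 of the Vehicle group, at 995, lay among the IMC mice (609 to 1065), and the adjusted p was 0.0157 without that library and 0.0471 without library 8. Exons of Gss overlap genes on the opposite strand (Acss2, Gssos1 and Gssos2). Slc7a11, the cystine importer, had 0 to 15 reads in a library. It had 11, 3, 15 and 0 reads in EtOH IMC mice, 0, 0, 3 and 1 in EtOH Vehicle mice, 6, 7, 0 and 0 in Pair Vehicle mice and 0, 1, 1 and 3 in Pair IMC mice, and a difference was not detectable at this depth.

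In the thioredoxin branch the reductase rose with IMC in ethanol-fed mice, and thioredoxin and peroxiredoxin 1 were not called. Txnrd1, for cytosolic thioredoxin reductase, ran from 1603 to 1949 in Pair Vehicle mice, 1945 to 2349 in Pair IMC mice, 1549 to 1744 in EtOH Vehicle mice and 2411 to 3224 in EtOH IMC mice. The groups overlapped in the pair-fed diet, where the fold was 1.23 (1.07 to 1.42, limma adjusted p = 0.0599, or 0.032 to 0.0431 without library 8, 12 or 13), and not in the ethanol diet, where it was 1.58 (1.37 to 1.82, adjusted p = 0.000245). Txn1, for thioredoxin itself, lay between 1547 and 1971 in all 16 mice, with log2 fold changes for IMC of 0.02 (-0.14 to 0.18) in pair-fed mice and 0.08 (-0.08 to 0.24) in ethanol-fed mice. Prdx1, for the peroxide-reducing enzyme that sulfiredoxin repairs, was among the most abundant members and gave 0.16 (-0.05 to 0.37) and 0.23 (0.02 to 0.44), with limma adjusted p of 0.343 and 0.116. Without library 9, the lowest EtOH IMC mouse at 11341 beside 14066 to 16372 in the others, the second became 0.0171. Prdx1 then also passed in both averages and for ethanol in IMC mice (0.00728 to 0.0499). With all libraries its IMC effect averaged over diets was 0.19 (0.04 to 0.34), with a limma adjusted p of 0.0503, just above the threshold. Per kilobase of exon, Ftl1 had the highest mean normalized count of the 32 members in Pair Vehicle mice (17684), followed by Prdx1 (3636), Fth1 (3150.1) and Txn1 (1560.3), and Cbr3 (7.99), Abcc1 (1.90) and Slc7a11 (0.241) had the lowest.

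Of the genes for handling of foreign compounds, Ephx1, Ugdh and Aox1 rose with IMC in both diets. Ephx1 encodes microsomal epoxide hydrolase and is also known as a target of the receptors CAR and PXR. It had normalized counts of 1382, 1291, 1849 and 1802 in Pair Vehicle mice, 5051, 7485, 6638 and 4108 in Pair IMC mice, 4505, 4435, 4996 and 4859.7 in EtOH Vehicle mice, and 9187, 8004, 17244 and 15924 in EtOH IMC mice. Each of the other groups lay above Pair Vehicle, and EtOH IMC lay above all of them. IMC raised it 3.63-fold (2.63 to 5.01, limma adjusted p = 0.00013) in pair-fed mice and 2.54-fold (1.84 to 3.51, adjusted p = 0.000521) in ethanol-fed mice.

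Ugdh encodes UDP-glucose dehydrogenase, which makes the UDP-glucuronate used in conjugation. It had normalized counts of 1599.8, 1473, 1667 and 1375 in Pair Vehicle mice, 2968, 3232, 2684 and 2465 in Pair IMC mice, 1151, 1744, 1626 and 1656 in EtOH Vehicle mice, and 3564, 4903, 4423 and 3589.5 in EtOH IMC mice. The 2 Vehicle groups overlapped and every IMC mouse was above them. The folds for IMC were 1.85 (1.53 to 2.25, limma adjusted p = 0.00076) in pair-fed mice and 2.68 (2.21 to 3.25, adjusted p = 3.92e-06) in ethanol-fed mice. Aox1, for the molybdenum enzyme aldehyde oxidase, was one of the members with a larger point estimate in pair-fed mice, at 2.65-fold (2.08 to 3.39) against 1.78-fold (1.39 to 2.27) in ethanol-fed mice (limma adjusted p = 0.00013 and 0.00237). Its counts ran from 479 to 754 in Pair Vehicle mice, 1324 to 1905 in Pair IMC mice, 763 to 1052 in EtOH Vehicle mice and 1305 to 2248 in EtOH IMC mice. The difference between the diets was -0.58 on the log2 scale, with an adjusted p of 0.251.

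Entpd5, a nucleotide phosphatase of the endoplasmic reticulum, rose by 1.35-fold (1.13 to 1.62) in ethanol-fed mice (limma adjusted p = 0.0205, or 0.0721, 0.059 and 0.0718 without library 1, 11 or 13), and its fold in pair-fed mice was 1.11 (0.924 to 1.33). Abcc1, an exporter of glutathione conjugates, had at most 50.5 normalized counts in a mouse and gave log2 fold changes of 0.27 (-0.18 to 0.73) in pair-fed mice and -0.43 (-0.89 to 0.02) in ethanol-fed mice.

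**Figure D3:**
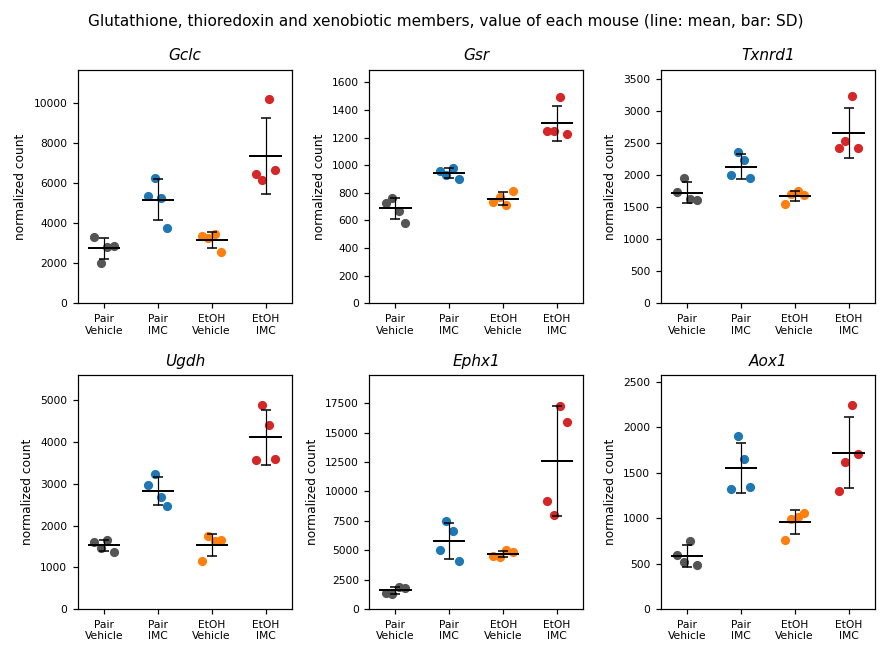
Normalized counts of Gclc, Gsr, Txnrd1, Ugdh, Ephx1 and Aox1 are plotted for each of the 16 mice (points), with the mean (line) and SD (bar) of each group of 4. Except for Txnrd1 in the pair-fed diet, the IMC mice lie above the Vehicle mice of the same diet.

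Among the haem and iron genes, the haem carrier and ferritin light chain were called in both diets. Slc48a1, a haem transporter of the lysosome, had normalized counts of 395, 395, 392 and 480.5 in Pair Vehicle mice, 593, 589, 567 and 532 in Pair IMC mice, 515, 601, 585 and 616 in EtOH Vehicle mice, and 916, 849, 1184 and 1032 in EtOH IMC mice. Groups compared by IMC did not overlap in either diet. IMC raised it by 1.38-fold (1.19 to 1.59, limma adjusted p = 0.00978) in pair-fed mice and by 1.71-fold (1.47 to 1.98, adjusted p = 8.19e-05) in ethanol-fed mice. The ferritin chains Fth1 and Ftl1, which store iron, rose by 1.68-fold (1.39 to 2.03) and 1.52-fold (1.27 to 1.82) in ethanol-fed mice (limma adjusted p = 0.000708 and 0.0026). In pair-fed mice Ftl1 passed narrowly (1.32-fold, 1.10 to 1.58, adjusted p = 0.0483) and lost its call without any of 11 libraries (2 to 7, 10, 12, 13, 15 and 16), with adjusted p of 0.0505 to 0.154. Fth1 did not pass there (1.31-fold, 1.08 to 1.58, adjusted p = 0.0648, or 0.029 without library 12). Ftl1 has 2 named pseudogenes and exons shared with an opposite-strand gene, so that its reads may be split.

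Blvrb, for biliverdin reductase B, ran from 623 to 795 in Pair Vehicle mice, 673 to 917 in Pair IMC mice, 893 to 1129 in EtOH Vehicle mice and 1392 to 1959.5 in EtOH IMC mice. It rose with IMC in ethanol-fed mice by 1.70-fold (1.42 to 2.03, limma adjusted p = 0.000402), and its fold in pair-fed mice was 1.14 (0.952 to 1.36, adjusted p = 0.365). Hmox1, for the stress-inducible haem oxygenase, was variable in Pair IMC mice, at 203, 652, 415 and 273, against 184, 279, 199 and 191 in Pair Vehicle mice. It had 168, 213, 131 and 208 in EtOH Vehicle mice and 212, 216, 267 and 297 in EtOH IMC mice, so that the groups overlapped in both diets. Its IMC effect passed only as the average over diets, at 1.52-fold (1.15 to 1.99, limma adjusted p = 0.023, or 0.0512 without library 5). Without library 2, the lowest Pair IMC mouse, it passed in pair-fed mice with an adjusted p of 0.0218.

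Of the 4 pentose phosphate members, only G6pdx was called for IMC, and in 1 diet. G6pdx encodes glucose-6-phosphate dehydrogenase, the entry enzyme of the pentose phosphate pathway. It had normalized counts of 67.5, 82.6, 114 and 104 in Pair Vehicle mice, 113, 141, 139 and 349 in Pair IMC mice, 82.0, 93.5, 69.9 and 72.1 in EtOH Vehicle mice, and 71.8, 61.4, 86.1 and 78.0 in EtOH IMC mice. In pair-fed mice it was called at 1.84-fold (1.26 to 2.69, limma adjusted p = 0.041), with library 8 at 349 beside 113 to 141 in the other Pair IMC mice. Without library 8 the log2 fold change fell from 0.88 to 0.53 with an adjusted p of 0.0654, and the call was also lost without library 1, 4, 6, 10 or 12 (0.0511 to 0.108). In ethanol-fed mice its fold was 0.936 (0.640 to 1.37). Exons of G6pdx overlap Ikbkg on the opposite strand. Pgd, for the second NADPH-producing step of the pathway, gave log2 fold changes for IMC of 0.10 (-0.19 to 0.39) in pair-fed mice and 0.17 (-0.12 to 0.46) in ethanol-fed mice. For the transaldolase and transketolase genes of the non-oxidative arm the averages over diets were -0.10 (-0.24 to 0.05) for Taldo1 and 0.16 (-0.02 to 0.33) for Tkt.

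Transcripts of the sensor and the factor passed in none of the comparisons on the common scale. Nfe2l2 had normalized counts of 1236, 984, 1229.8 and 1140.0 in Pair Vehicle mice, 921, 1243, 1244 and 1054 in Pair IMC mice, 1046, 988, 1020.1 and 1115 in EtOH Vehicle mice, and 881, 897, 1089 and 1165 in EtOH IMC mice. The 4 groups overlapped, and the IMC effect averaged over diets was -0.05 on the log2 scale (-0.22 to 0.12). For Keap1 the average was -0.03 (-0.15 to 0.10), with -0.19 in pair-fed mice and 0.13 in the ethanol diet (limma adjusted p = 0.171 and 0.263). With ethanol in IMC mice Keap1 was 1.17-fold higher (1.04 to 1.32) without overlap, at 614 to 663 beside 494 to 607, with an adjusted p of 0.0724. That p was 0.0489 without library 6 and 0.00162 on the values as deposited, and it also passed after quantile normalization. NRF2 is controlled mainly at the level of its protein, which was not measured here.

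Mafg, a small MAF partner of NRF2, was the only one of the 31 tested members that fell with IMC. It had 1279, 1304, 1456 and 1311 in Pair Vehicle mice and 1047, 1048, 1031 and 1082 in Pair IMC mice, with no overlap, and 1293, 1491, 1109 and 1526 in EtOH Vehicle mice and 969.5, 1177, 1188 and 971 in EtOH IMC mice, with overlap. The folds were 0.788 (0.682 to 0.910) in pair-fed mice and 0.797 (0.690 to 0.920) in ethanol-fed mice (limma adjusted p = 0.0362 and 0.0254). The first call was lost without library 2, 4, 6, 10, 12, 14 or 16 (0.0516 to 0.0946) and the second without library 3, 7, 9 or 15 (0.0702 to 0.088), while the average over diets had an adjusted p of 0.00188. Exons of Mafg overlap Sirt7 on the same strand. Sqstm1 encodes p62, an autophagy receptor that binds KEAP1, and it rose with IMC by 1.47-fold (1.25 to 1.74) in ethanol-fed mice (limma adjusted p = 0.00228). In pair-fed mice its fold was 1.24 (1.05 to 1.46, adjusted p = 0.0859, or 0.0295 without library 12). Osgin1, an oxidative stress-induced growth inhibitor, had the widest SE of the 31 tested members, with 826, 2787, 3587 and 3583 in EtOH IMC mice and 989.9 to 2364 in EtOH Vehicle mice. Its fold in ethanol-fed mice was 1.69 (0.918 to 3.11, limma adjusted p = 0.21), and 0.0155 was the adjusted p without library 9, the lowest EtOH IMC mouse.

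**Figure D4:**
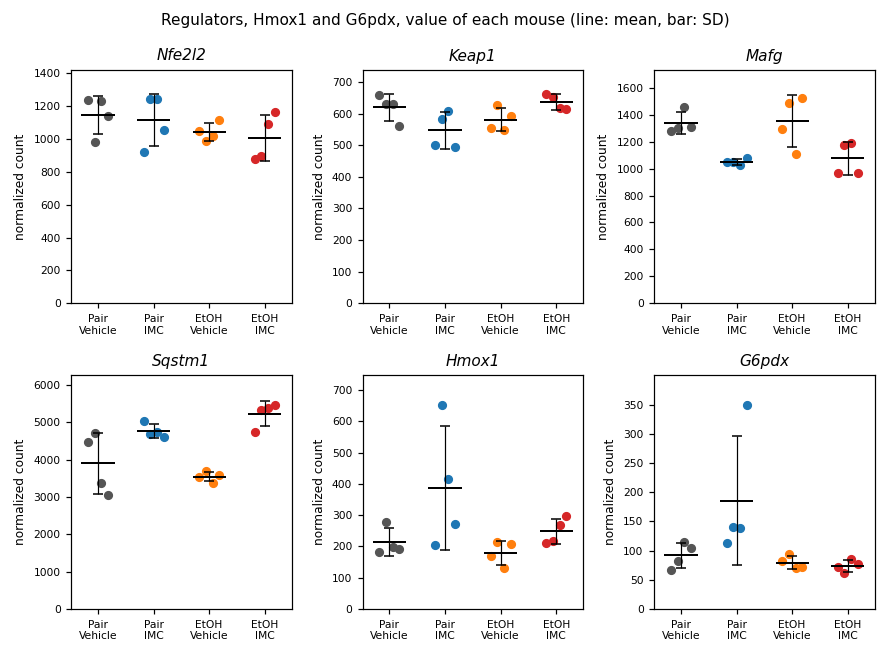
Normalized counts of Nfe2l2, Keap1, Mafg, Sqstm1, Hmox1 and G6pdx are plotted for each of the 16 mice (points), with the mean (line) and SD (bar) of each group of 4. The 4 groups overlap for Nfe2l2, the Pair IMC mice lie below the Pair Vehicle mice for Mafg, and 1 Pair IMC mouse at 349 stands above the others for G6pdx.

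The IMC effects of the 2 diets were then compared directly. The effect was larger in ethanol-fed than in pair-fed mice for 2 members, Cbr3 and Cbr1, and smaller for none. Of all genes 0.319% were called in the first direction and 0.791% in the second. EdgeR called a larger effect for 2 members and DESeq2 for 3, and neither called a smaller one. At an unadjusted p under 0.05 there were 13 members in either direction, of which 3 had the smaller effect. The share of all genes at that unadjusted p was not counted. The difference was above 0 for 23 of the 31 tested members, beside 49.8% of all genes, and its median over the members was 0.28. The difference was 4.80 ± 0.51 (SE) on the log2 scale for Cbr3 (limma adjusted p = 0.000361) and 1.01 ± 0.18 for Cbr1 (adjusted p = 0.0133). Srxn1 had a difference of 0.89 (adjusted p = 0.0822, or 0.0199 without library 11) and Nqo1 one of 0.71 (adjusted p = 0.123). For 9 members the call was made in ethanol-fed mice alone, but apart from Cbr3 the difference between diets did not pass for any of them. This difference, too, sets libraries 1 to 8 against 9 to 16, so that it and the order of the libraries cannot be told apart.

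Ethanol raised Srxn1 and Nqo1 together with members of haem and xenobiotic handling. The deposited values of the median gene were 1.14-fold higher in ethanol-fed than in pair-fed libraries (0.19 on the log2 scale), and the effects here are relative to a common scale on which this shift was removed. In Vehicle mice 7 members rose and none fell by limma, edgeR or DESeq2, or at an unadjusted p under 0.05 (0 members), beside 6.35% of all genes higher and 5.56% lower. On the values as deposited, which carry that shift, 12 rose and none fell. The shares of all genes here and below are on the common scale, and none was counted on the deposited values. In IMC mice 12 rose and 1 fell, beside 7.87% higher and 8.61% lower, and as deposited 21 rose and 1 fell. Averaged over treatments 14 rose and 2 fell, beside 13% higher and 13.2% lower, and as deposited 22 rose and 1 fell. The median log2 fold change of the members was 0.09 in Vehicle mice, 0.32 in IMC mice and 0.24 on average.

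The 6 members that rose with ethanol under both treatments were Nqo1, Srxn1, Ephx1, Slc48a1, Blvrb and Entpd5. The share of all genes that did so was not counted. In Vehicle mice Ephx1 rose 3.0-fold (2.17 to 4.15, limma adjusted p = 0.000524), Srxn1 2.0-fold (1.57 to 2.55, adjusted p = 0.00156) and Nqo1 1.92-fold (1.53 to 2.40, adjusted p = 0.00142). Slc48a1 (1.40-fold), Entpd5 (1.41-fold) and Blvrb (1.39-fold) rose less, with limma adjusted p of 0.006, 0.0167 and 0.0196. The call of Entpd5 was lost without library 5 or 7 (0.0548 and 0.0513) and that of Blvrb without library 7 or 12 (0.0626 and 0.056). Aox1 was the 7th, at 1.64-fold (1.28 to 2.09, adjusted p = 0.0116), and in IMC mice its fold for ethanol was 1.10 (0.860 to 1.40). All 7 lay higher in the 4 EtOH Vehicle mice than in the 4 Pair Vehicle mice without overlap (9.93% of all genes).

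In IMC mice ethanol raised Srxn1 by 3.70-fold (2.9 to 4.72, limma adjusted p = 2.35e-06), Nqo1 by 3.14-fold (2.51 to 3.93, adjusted p = 3.46e-06), Cbr1 by 2.25-fold (1.86 to 2.72, adjusted p = 3.13e-05) and Blvrb by 2.07-fold (1.73 to 2.48, adjusted p = 4.71e-05). Cbr3 rose by 30.0-fold (17.7 to 50.8) from the few reads of the Pair IMC mice. Without overlap between the groups 13 members were higher (9.36% of all genes) and 2, G6pdx and Gclm, were lower. The share of all genes that were lower without overlap was not counted. The call of Pir (1.34-fold) was lost without library 4, 13 or 15 (adjusted p 0.0579 to 0.0765) and that of Txnrd1 (1.24-fold) without library 2, 6, 7, 8 or 13 (0.0501 to 0.136). The member that fell was G6pdx, at 0.445-fold (0.304 to 0.650, limma adjusted p = 0.00615), from the Pair IMC level that includes library 8. Averaged over treatments G6pdx (0.624-fold) and Gclm (0.859-fold) fell, and on the deposited values the log2 change of Gclm was -0.03 and did not pass. The calls of Gclc, Pir, Ugdh and Gclm in that average lay close to the threshold (adjusted p 0.0297 to 0.0447) and were lost without any of 8 to 11 libraries. Pgd passed only in that average, at 1.28-fold (1.11 to 1.48, adjusted p = 0.0114).

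**Figure D5:**
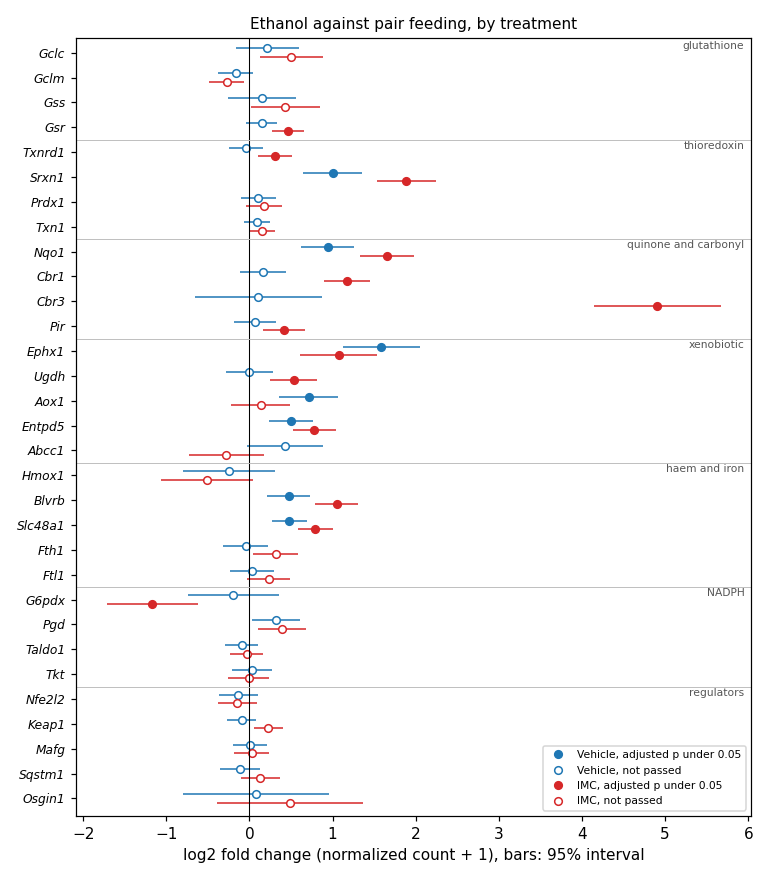
The log2 fold change of normalized count + 1 is plotted for ethanol against pair feeding in each of the 31 tested members, grouped by role, in Vehicle (blue) and IMC (red) mice. Bars are 95% intervals and filled points have an adjusted p under 0.05. Srxn1, Nqo1, Ephx1, Slc48a1, Blvrb and Entpd5 are filled in both, and G6pdx is the filled point below 0 in IMC mice.

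For 12 members every EtOH IMC mouse lay above all other mice, against 1.9% of all genes tested. These were Blvrb, Cbr1, Cbr3, Entpd5, Ephx1, Gsr, Nqo1, Pir, Slc48a1, Srxn1, Txnrd1 and Ugdh. Within that group library 13 was the highest mouse for 18 of the 31 tested members, as it was for 19.8% of all genes, and library 9 was the highest for 2. In EtOH Vehicle mice library 7 was highest for 15 members, against 25.2% of all genes. At the other end, 8 members passed in none of the comparisons: Taldo1, Tkt, Prdx1, Txn1, Osgin1, Keap1, Nfe2l2 and Abcc1. The share of all genes that passed in none was not counted. Of the 8, Prdx1 lay higher in Pair IMC mice (11898 to 12809) than in Pair Vehicle mice (10608 to 11447) without overlap.

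Companion lists placed the members beside the rest of the pathway. The counts of each list stand beside the shares of all genes tested. With IMC 4.32% of all genes were higher and 5.17% lower in pair-fed mice, and 10.4% and 11.1% in ethanol-fed mice. With ethanol 6.35% were higher and 5.56% lower in Vehicle mice, and 7.87% and 8.61% in IMC mice. Of 29 tested further NRF2 targets and conjugation genes, 4 rose with IMC in pair-fed mice and 13 in the ethanol diet, and none fell by limma, edgeR or DESeq2 or at an unadjusted p under 0.05 (0 genes). The median log2 fold changes were 0.09 and 0.32. Gstp1, a glutathione transferase, rose by 1.49 on the log2 scale in pair-fed mice (limma adjusted p = 0.000169), followed by Gstm1 (0.89) and Htatip2 (0.79). In ethanol-fed mice the glutathione transferase Gsta1 (3.25), the glutathione peroxidase Gpx2 (3.14) and the exporter Abcc4 (2.03) changed most. Ethanol raised 8 of the 29 in Vehicle mice, led by Gstm3 (2.18), Abcc4 (1.75) and Gstm4 (1.38), and 16 in IMC mice, led by Gsta1 (3.5), Abcc4 (3.19) and Gpx2 (2.71). Transferase genes have close paralogs, and reads may be split between them.

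Of 30 other glutathione, thioredoxin and peroxide genes, 1 rose and 2 fell with IMC in pair-fed mice, and 4 rose and 3 fell in ethanol-fed mice. Gpx4, which reduces lipid peroxides, rose by 0.43 and 0.47 on the log2 scale (limma adjusted p = 0.00888 and 0.00237), and Slc3a2, the partner chain of the cystine importer, by 0.77 in ethanol-fed mice (adjusted p = 8.64e-05). Gpx1 fell by 0.45 in pair-fed mice and Prdx6 fell by 0.37 in ethanol-fed mice. With ethanol 1 of the 30 rose and 1 fell in Vehicle mice, and 2 rose and 4 fell in IMC mice. The counts of this list for IMC and for ethanol lay near the shares of all genes tested.

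Of 20 tested further NADPH and pentose phosphate genes, 2 rose and 2 fell with IMC in pair-fed mice and 1 rose and 2 fell in ethanol-fed mice. Of all genes tested 4.32% rose and 5.17% fell in the first comparison, and 10.4% and 11.1% in the second. Aldh1l2 (1.86) and Me1 (0.72), for malic enzyme, rose in pair-fed mice and Mthfd2 (1.04) rose in ethanol-fed mice, while Pgls (-0.53) fell in the first and Aldh1l1 (-0.69) and Idh2 (-0.50) in the second. Ethanol raised 1 gene of this list, Idh2 (0.32), in Vehicle mice. In IMC mice it raised 2 and lowered 3, among them Me1 (-1.20) and Rpia (-1.0). Of 15 other regulators of NRF2, 1 fell with IMC in pair-fed mice (Trim21, -0.39), and in ethanol-fed mice 1 rose and 4 fell, with the sestrin Sesn2 at 0.89, its relative Sesn1 at -0.52 and Nfe2l1, a relative of NRF2, at -0.41. Ethanol lowered 2 of them in Vehicle mice, Maff (-0.97) and Mafk (-0.42), and raised 3 in IMC mice.

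The 18 target genes of CAR and PXR showed another pattern. With IMC none rose by limma, edgeR or DESeq2 (3 at an unadjusted p under 0.05) and 5 fell in pair-fed mice, and 2 rose and 5 fell in ethanol-fed mice. With ethanol 12 rose in Vehicle mice and 10 in IMC mice, and none fell by any of these tools or at an unadjusted p under 0.05 (0 genes). The medians were 0.87 and 0.94 on the log2 scale. Cyp2b10, the classical CAR target, rose by 5.75 and 6.15 on the log2 scale, while with IMC Cyp2c54 changed by -1.76 in pair-fed mice and -1.43 in the ethanol diet. Gadd45b was 1 of the 2 that rose with IMC in ethanol-fed mice, by 1.25 (limma adjusted p = 0.0246).

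Markers of other cells were measured beside the members. With IMC 4.32% of all genes tested were higher and 5.17% lower in pair-fed mice, and 10.4% and 11.1% in ethanol-fed mice. Alb, the defining hepatocyte transcript, took 6.74% to 13% of the reads of a library. None of 12 Kupffer cell and macrophage markers was called by limma in any comparison (at most 2 at an unadjusted p under 0.05, and 1 by edgeR and by DESeq2, lower with IMC averaged over diets), and their summed normalized count ran from 3653 to 10132 in Pair Vehicle mice, 4391 to 6328 in Pair IMC mice, 5956 to 8415 in EtOH Vehicle mice and 4356 to 6989 in EtOH IMC mice. Of 8 stellate cell markers 4 fell with IMC in ethanol-fed mice and none was called by limma in pair-fed mice (1 lower at an unadjusted p under 0.05 and by edgeR and DESeq2). Their sums ran from 5708 to 6808 in EtOH Vehicle mice and 3293 to 4436 in EtOH IMC mice, without overlap, beside 4266 to 6005 and 4214 to 5269 in the Pair Vehicle and Pair IMC groups. Red blood cell markers also ran lower in EtOH IMC mice, with sums of 50.4 to 134 against 216 to 390 in Pair IMC mice and 130 to 367 in EtOH Vehicle mice, and 2 of the 4 tested fell with IMC in ethanol-fed mice. Among 12 hepatocyte markers 2 fell in that comparison, Cyp2f2 (-1.38) and Cyp2e1 (-0.82), which mark the periportal and the central zone of the lobule. With IMC none of 7 endothelial markers was called by limma, edgeR or DESeq2 (at most 1 at an unadjusted p under 0.05), 1 of 5 bile duct markers, Krt7, fell in pair-fed mice, and the T and B cell (1 tested) and neutrophil (2 tested) markers gave no call by these tools (at most 1 at an unadjusted p under 0.05). Markers also moved with ethanol, for which 6.35% of all genes were higher and 5.56% lower in Vehicle mice. These shares were 7.87% and 8.61% in IMC mice, and 13% and 13.2% averaged over treatments. In Vehicle mice 2 stellate cell markers rose (Lrat, 1.16, and Dcn, 0.40), and 1 hepatocyte marker rose and 1 fell. In IMC mice all 4 tested red blood cell markers fell, 2 stellate cell markers rose and 2 fell, 1 endothelial marker rose, and 1 hepatocyte marker rose and 3 fell. Averaged over treatments 3 endothelial markers rose, 2 stellate cell markers rose and 1 fell, all 4 red blood cell markers fell, and 2 hepatocyte markers rose and 4 fell. No marker was at 0 in all libraries, and the part of these shifts in the members' changes was not tested.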

How the data were processed

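Liver RNA of 16 mice, 4 per group, was read from 1 gene table. The signal values that the authors deposited are read counts on genes divided by a factor per library. The submitters' processing notes name Trim Galore, FastQC, STAR, edgeR and mm10, and the counting strand is not given in the sources used here. Dividing by the value of 1 read (0.906 to 1.18 units) gave whole reads within 0.01 for 100% of values. In library 15 the value of 1 read is close to 1 unit, which makes recovery least secure there. Of 27212 rows, 24082 Ensembl genes were kept once each, since rows that repeat a gene under another symbol hold the same values. Replicates of a group had chi-square values per gene between 5.60 and 44.0, so no library repeats another. The study recorded intake over fewer cages per group than the 4 mice sequenced, so some mice of a group may share a cage, and the labels do not say which.

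The factors looked set within each diet, so all columns were rescaled by a median ratio over 16 libraries (0.940 to 0.945 for pair-fed and 1.07 to 1.08 for ethanol-fed). Genes at 10 or more in at least 4 libraries were fitted on log2(value + 1) with limma 3.58.1 in R 4.3.3, with 1 mean per group and trended variance moderation. Tests were two-sided and adjusted by Benjamini-Hochberg over 12522 genes, with a threshold of 0.05. Fold changes on this scale understate the change of low genes. An exact permutation test of 4 mice against 4 cannot go below p = 0.0286, so none was used. Whole reads fitted by edgeR 4.0.16 and by DESeq2 1.42.0, other pseudocounts, filters and scalings, and leaving out each library in turn were alternatives. The fit was tested on simulated data first.

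The members and lists were chosen with earlier results of these data known. All 32 members are named, and from each companion list at most 3 genes per comparison, those of the largest absolute change among genes that passed. Positions are from GENCODE vM21 on GRCm38. Besides the members named above for it, exons of Gclm, Sqstm1, Keap1, Ugdh, Ephx1, Slc48a1 and Tkt overlap other annotated genes, by 1 to 580 bases. Reads carry no molecular identifiers, and p-values measure the spread between these mice only.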

Additional observations from a re-analysis of the deposited data

Results flagged for a closer look

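In 11 of 128 groups of 4 mice 1 mouse stood apart from the other 3 by Dixon's criterion, where chance gives about 1 in 20. Library 13 of EtOH IMC was such a mouse for 3 members, at 10176 for Gclc (others 6168 to 6619), 1493 for Gsr (1224 to 1250.0) and 3224 for Txnrd1 (2411 to 2535). Library 14 of Pair Vehicle was high for Nqo1 at 159 (134 to 137) and for Ftl1 at 26819 (22151 to 22929.5). Also in Pair Vehicle, library 12 was high for Hmox1 at 279 (184 to 199) and library 16 for Slc48a1 at 480.5 (392 to 395). In Pair IMC, library 8 was high for G6pdx at 349 (113 to 141) and library 4 low for Pir at 240.0 (296 to 306). Library 9 of EtOH IMC was low for Ftl1 at 31628 (38172 to 39134), and library 1 of EtOH Vehicle was low for Cbr3 at 4.46 (13 to 14.3).

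The IMC effect differed between the diets for Cbr1, by 1.01 on the log2 scale (limma adjusted p = 0.0133), and for Cbr3, by 4.80 (adjusted p = 0.000361). In both genes all 4 EtOH IMC mice were above the other 12 mice.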

How the results depend on the processing

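No member that passed in the reported fit changed direction under any alternative. Of 5752 values over 217 pairs of member and comparison, 5466 kept direction and call, 117 lost the call and 69 gained one. The other 100 changed direction without a call in either fit, or had no adjusted p. On the values as deposited, which carry the shift between diets, the members called for ethanol numbered 12 instead of 7 in Vehicle mice and 22 instead of 13 in IMC mice, and those higher without overlap 13 instead of 7 and 20 instead of 13. The share of all genes was not counted on the deposited values. With a mean of at least 100 required, 1 member instead of 2 differed between diets, because Cbr3 was no longer tested. Leaving out 1 library at a time gave 8 to 13 members called for IMC in pair-fed mice (8 without library 4, 6 or 10), 18 to 21 in ethanol-fed mice, 20 to 23 on average, 2 to 3 for the difference, and 5 to 7, 11 to 15 and 12 to 17 for ethanol in Vehicle mice, in IMC mice and on average. EdgeR on whole reads without library 15, an alternative chosen after seeing the data, called 12 members for IMC under pair feeding and 19 under ethanol. No paired analysis was possible because the labels do not say which mice were pair-fed to which. Depth limits Slc7a11, Cbr3 and Abcc1, the members with the fewest reads per kilobase of exon.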
